A study of Homo sapiens with 16 samples.

Results

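*JAK1* and 6 of its partners in cytokine signaling were followed through the histone acetylation peaks of ovarian cancer cells that are sensitive or resistant to cisplatin (cPt). The genes were the receptor subunits *IL6ST* and *LIFR*, the kinases *JAK1*, *JAK2* and *TYK2*, the transcription factor *STAT3* and the inhibitor *SOCS3*. Each gene was given a window on hg19, and the window was extended by 50 kb on either side. The windows measured 110 to 250 kb and 1290 kb together. Of the 179689 peaks in 8 deposited lists, 320 overlapped these windows. *JAK1* is a gene the study picked partly from the H3K27ac of these same A2780 and A2780cis libraries, so its gain there is a description and not independent evidence.

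H3K27ac was profiled in A2780 cells, a cPt-sensitive line labelled as endometrioid adenocarcinoma, and in A2780cis, its resistant derivative grown with 1 µM cPt. It was also profiled in CAOV4 cells and in CAOV4cis cells, which had received rising cPt for 21 days and then 1 µM cPt. A2780 cells carrying the inducible shRNA shMBD3.26 or shMBD3.232 against *MBD3*, a subunit of the NuRD chromatin complex, were profiled after 7 days of knockdown and sorting for GFP. H3K9ac was profiled in A2780 and A2780cis only. The reference for the shRNA cells is A2780 without an shRNA, so knockdown and the handling of transduced cells cannot be told apart, and acetylation lists cannot show how far MBD3 was reduced. The resistant lines were under cPt and the sensitive lines were not, so resistance and the drug in the medium cannot be told apart either. Every condition was 1 library, so no difference below has a replicate check and no p-value was computed.

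Cytokines of the interleukin-6 family bind receptor complexes that share gp130, the product of *IL6ST*. JAK kinases on the receptor tails are then activated and phosphorylate STAT3, which forms dimers, enters the nucleus and activates its target genes. *SOCS3* is one of these targets and closes a feedback loop, since its protein binds gp130 and JAK kinases and damps the signal. H3K27ac lies at active promoters and enhancers, and H3K9ac lies mostly at active promoters.

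Sequences just upstream of annotated transcription starts are shown for *JAK1*, *IL6ST* and *SOCS3*, which differed strongly between lines. They are also shown for *LIFR*, whose peak lay far from the 5′ edge of the window. *TYK2* differed strongly too, mostly in its flanks, and its sequence is not shown. They were taken from RefSeq on GRCh38.p14, a different build from that of the peak lists, so they could not be placed on the peaks. Which of a gene's starts was acetylated was therefore not determined, and where a gene has several starts only 1 is shown. All 7 genes matched, with 15 annotated starts, and each sequence shown is the 250 bases before a start, read 5′ to 3′ on the minus strand. The positions are chr1:64966550-64966799 for *JAK1* start 3, chr5:55994964-55995213 for *IL6ST* start 1, chr5:38556647-38556896 for *LIFR* start 3 and chr17:78360926-78361175 for *SOCS3* start 1. Capitals mark TTCNNGAA, the triplets recognized by STAT dimers, spaced by 2 bases.
JAK1 start 3: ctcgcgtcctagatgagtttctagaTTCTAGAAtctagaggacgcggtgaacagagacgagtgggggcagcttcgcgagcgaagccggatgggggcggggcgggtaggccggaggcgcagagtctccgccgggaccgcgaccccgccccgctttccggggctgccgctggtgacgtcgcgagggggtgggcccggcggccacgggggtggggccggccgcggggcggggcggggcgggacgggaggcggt
IL6ST start 1: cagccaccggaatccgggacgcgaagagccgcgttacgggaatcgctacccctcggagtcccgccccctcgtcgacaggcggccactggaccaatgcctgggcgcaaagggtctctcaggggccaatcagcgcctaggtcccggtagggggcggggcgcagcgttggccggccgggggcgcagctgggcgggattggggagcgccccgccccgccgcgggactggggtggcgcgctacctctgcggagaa
LIFR start 3: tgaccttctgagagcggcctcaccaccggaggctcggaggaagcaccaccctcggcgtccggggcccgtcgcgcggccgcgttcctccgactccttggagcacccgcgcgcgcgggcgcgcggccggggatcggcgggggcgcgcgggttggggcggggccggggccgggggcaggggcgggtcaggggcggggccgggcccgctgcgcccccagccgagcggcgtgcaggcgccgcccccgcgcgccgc
SOCS3 start 1: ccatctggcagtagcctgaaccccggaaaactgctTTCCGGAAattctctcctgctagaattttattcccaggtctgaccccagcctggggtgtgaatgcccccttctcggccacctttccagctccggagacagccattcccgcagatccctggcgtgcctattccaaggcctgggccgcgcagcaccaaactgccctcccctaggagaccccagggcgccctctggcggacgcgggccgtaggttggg

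The promoter of *JAK1* start 3 is rich in CpG, with 35 CpG dinucleotides and a GC content of 74.4%, beside medians of 11 and 58.0% over 35116 promoters of this length. *JAK1* start 1, 101.2 kb upstream of start 3, has 13 CpG and a GC content of 55.6%. The promoter of *LIFR* start 3 has 44 CpG and that of *IL6ST* has 31, while *LIFR* start 1 has 0. *SOCS3* start 1 has 13 CpG and a GC content of 62.8%. *SOCS3* start 2, which is not shown, lies 1.26 kb downstream and is richer, with 30 CpG and 71.6%. The motif TTCNNGAA occurred once in *JAK1* start 3, *SOCS3* start 1 and the only start of *STAT3*, and in 6.62% of all promoters. *SOCS3* start 2 held neither this motif nor the next. The spacing more usual for STAT dimers, TTCNNNGAA, occurred once in each of *LIFR* starts 1 and 2 and in 6.57% of all promoters. Both motifs read the same on either strand, and a match describes letters and not a bound site.

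The shRNAs are given because 2 of the lists rest on them. The sequences listed by the study as their guides, whose strand relative to MBD3 was not checked here, and the primers used by the study for ChIP at *JAK1* are as follows.
MBD3.26: aacaaggtcaagagcgacccgc
MBD3.232: ttgctcatcagcatcttgcccg
JAK1 ChIP forward primer: gccgctgctctaaagaaagt
JAK1 ChIP reverse primer: attctaaggaccacagcgat
Neither primer was found in the promoter sequences of *JAK1* analyzed here, so the amplicon was not placed.

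Summed over the 7 windows, peaks covered a larger share than over the whole span of the lists, which includes long stretches without a peak. H3K27ac peaks covered 12.3% of the windows in A2780 and 13.1% in A2780cis, beside 3.84% and 3.64% of the span of the lists. The corresponding H3K27ac shares of the windows were 12.5% in CAOV4, 14.8% in CAOV4cis, 8.39% with shMBD3.26 and 9.66% with shMBD3.232. H3K9ac peaks covered 8.03% of the windows in A2780 and 7.10% in A2780cis, beside 2.14% and 2.11% of the span. The median window differed less from the median of the 200-kb tiles with a peak, at 4.25% of its length against 4.0% in A2780, 11.4% against 3.2% in CAOV4cis and 3.25% against 3.55% with shMBD3.232. *TYK2* and *STAT3* were broadly covered throughout the A2780 lineage, and *JAK2* and *LIFR* were little covered in any list. *JAK1*, *IL6ST*, *SOCS3* and *TYK2* differed strongly between lines, *TYK2* through its low coverage in the CAOV4 lines. The grid of covered lengths gives every value.

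**Figure D1:**
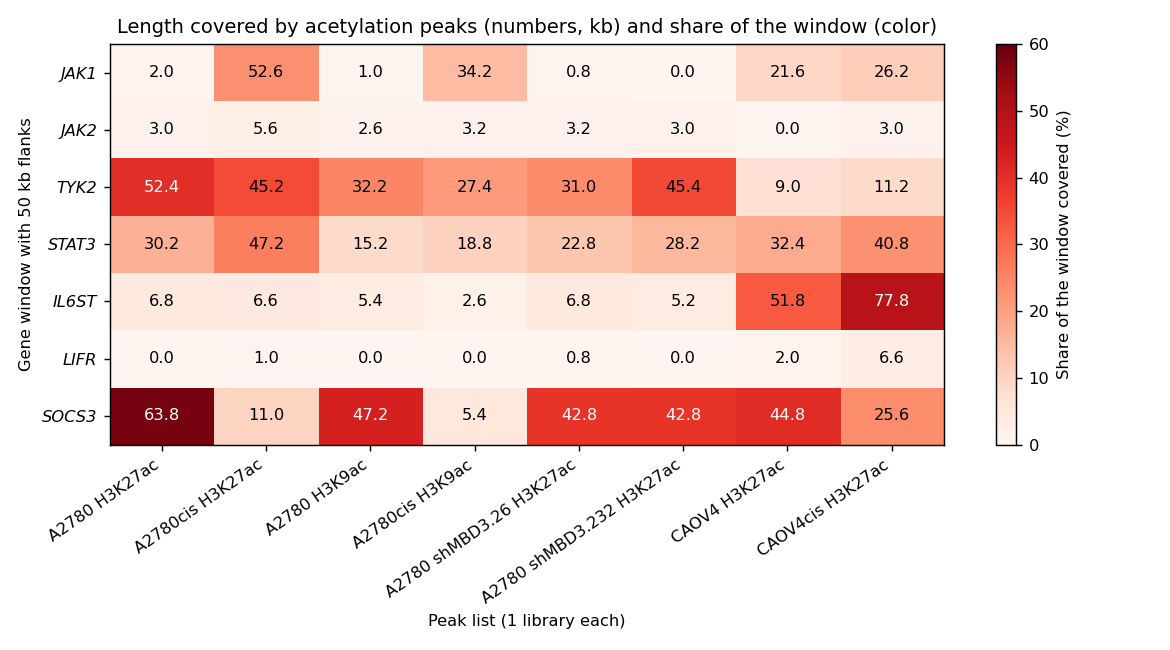
Length covered by peaks in kb (numbers) and share of the window covered in percent (color scale) for 7 gene windows with 50 kb flanks (vertical axis) in 8 peak lists of 1 library each (horizontal axis). JAK1 goes from 2.0 kb in A2780 to 52.6 kb in A2780cis while SOCS3 goes from 63.8 to 11.0 kb, and IL6ST reaches 51.8 and 77.8 kb only in the CAOV4 lines.

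A gene was called higher or lower where its covered length differed by at least 5 kb and at least 2-fold between lists, and the same rule was applied to all 200-kb tiles of the genome with a peak in either list. For H3K27ac in A2780cis against A2780, 1 of 7 genes was called higher, *JAK1*, and 1 was called lower, *SOCS3*. Among tiles, 6.17% were called higher and 9.34% lower. For H3K9ac in the same lines the called genes were again *JAK1*, higher, and *SOCS3*, lower, beside 6.92% and 9.13% of tiles. In CAOV4cis against CAOV4, 0 genes were called, beside 5.2% of tiles higher and 4.55% lower. With shMBD3.26 against A2780, 0 genes were called, beside 0.996% of tiles higher and 5.38% lower. With shMBD3.232, 0 genes were called, beside 0.849% higher and 7.02% lower. Between the sensitive lines, CAOV4 against A2780, *JAK1* and *IL6ST* were called higher and *TYK2* lower, beside 14.8% and 23.9% of tiles. With only 7 genes, a count of 0 to 2 is close to these backgrounds, and the sizes of the single differences carry the information. Since the windows differ from the tiles in length, differences called by this rule, and several others, are set beside tiles that differ in the same direction. The shares of tiles that differ by at least as many percentage points of their length, and by at least as many kb, are given. Tiles were not matched to the windows for starting coverage. In A2780 the median tile with an H3K27ac peak was covered to 4.0%, beside 58.0% for the *SOCS3* window. Most tiles could not fall as far as *SOCS3*. Small shares at broadly covered windows therefore do not show how rare such a difference is among tiles covered alike.

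**Figure D2:**
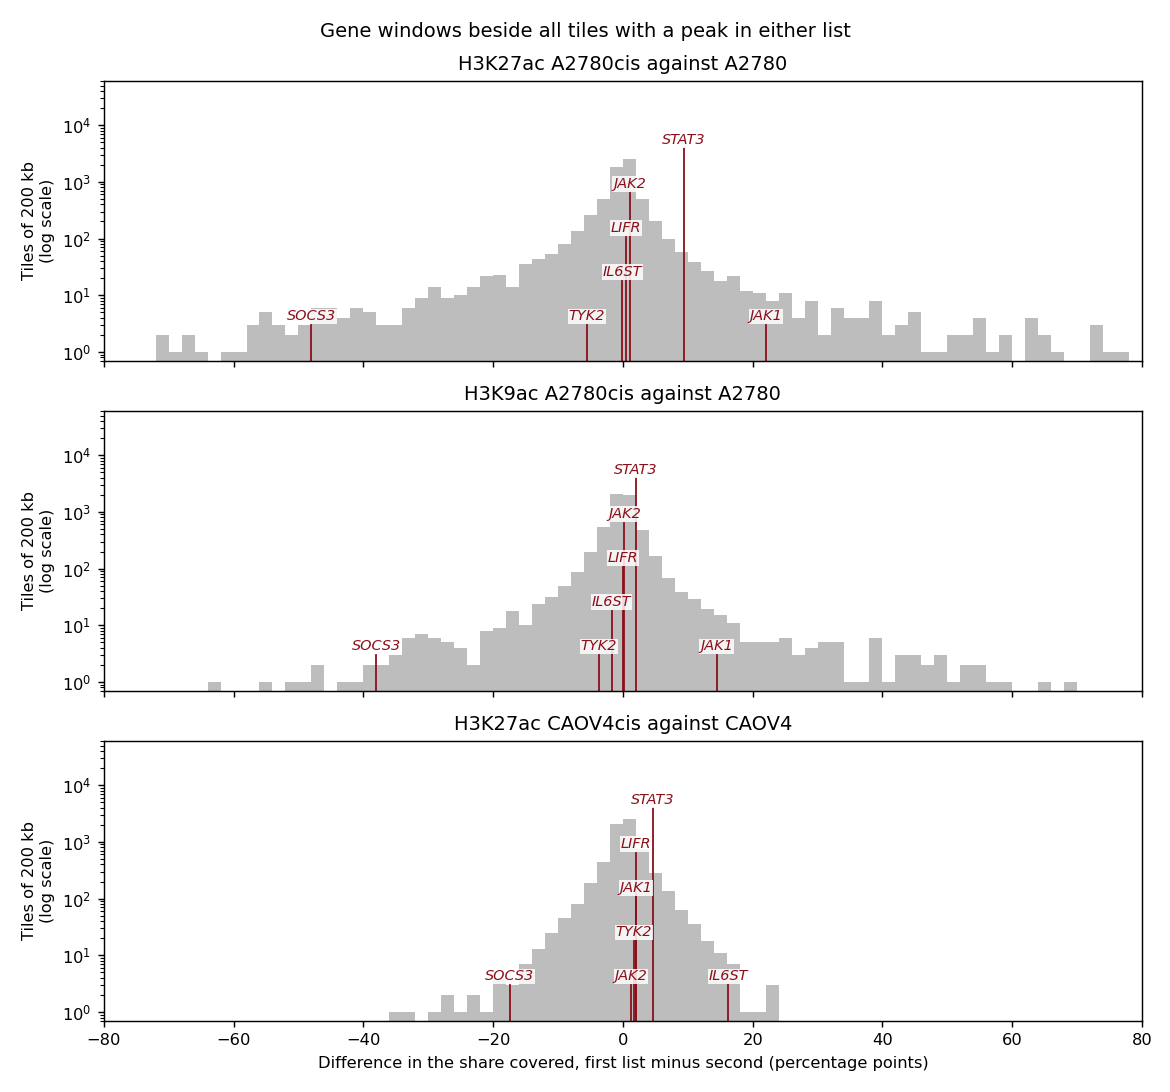
Difference in the share of a window or tile covered by peaks, first list minus second in percentage points (horizontal axis), for all 200-kb tiles with a peak in either list (gray histogram, log scale on the vertical axis) and for the 7 gene windows (red lines, whose heights only separate the labels). JAK1 lies at 22.0 and SOCS3 at -48.0 points for H3K27ac in A2780cis against A2780, while IL6ST at 16.3 and SOCS3 at -17.5 points lie at the edges in CAOV4cis against CAOV4.

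Of the receptor genes, *IL6ST* was broadly acetylated in both CAOV4 lines and narrowly in the A2780 lineage, and *LIFR* held few peaks in any list. *IL6ST* encodes gp130, the shared signal-transducing subunit. H3K27ac peaks covered 6.8 kb of its window in A2780, 6.6 kb in A2780cis, 6.8 kb with shMBD3.26 and 5.2 kb with shMBD3.232. In CAOV4 they covered 51.8 kb and in CAOV4cis 77.8 kb, so that both CAOV4 lines were far above the 4 lists of the A2780 lineage. H3K9ac covered 5.4 kb in A2780 and 2.6 kb in A2780cis. A peak lay across the 5′ edge of the gene window in all 8 lists, and it was 2.6 to 8.8 kb wide. In the A2780 lineage this peak made up most of the covered length.

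The additional *IL6ST* acetylation of the CAOV4 lines lay inside the gene and upstream of it. In CAOV4, 22.2 kb lay in the gene window without flanks and 28.4 kb in the 5′ flank. In CAOV4cis the lengths were 38 kb and 36.6 kb. The widest peak upstream measured 19.0 kb in CAOV4 (chr5:55313401-55332400) and 23 kb in CAOV4cis (chr5:55314801-55337800), and no list of the A2780 lineage had a peak there. *IL31RA*, another cytokine receptor gene, neighbors *IL6ST* on the 3′ side in RefSeq. CAOV4 covered 7.62 times as much of the window as A2780, a difference of 45.0 kb. Of all tiles, 1.18% rose by at least as many percentage points and 1.97% by at least as many kb. Of 12 merged regions, formed from peaks of either list with at least 1 bp in common, 10 were found in CAOV4 only, beside 31.2% over the whole lists. CAOV4cis exceeded CAOV4 by 26 kb or 1.5-fold, below the 2-fold threshold, and 0.178% of tiles rose by at least as many percentage points and 0.415% by at least as many kb. Of the CAOV4 length, 88.4% lay under a CAOV4cis peak, beside 63.7% over the whole lists.

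*LIFR* encodes the receptor that pairs with gp130 for leukemia inhibitory factor. It held no peak in A2780, in either H3K9ac list and with shMBD3.232. It held 1 H3K27ac peak of 1.0 kb in A2780cis, 1 of 0.8 kb with shMBD3.26, 1 of 2.0 kb in CAOV4 and 6 peaks with 6.6 kb in CAOV4cis. The peaks of those 4 lists overlapped and began 41.4 to 42.6 kb inside the 5′ edge, at chr5:38556401-38557400 in A2780cis and chr5:38555201-38558600 in CAOV4cis. The remaining 5 peaks of CAOV4cis lay upstream of the gene window and were 0.2 to 1.2 kb wide. CAOV4cis exceeded CAOV4 by 4.6 kb, under the 5 kb threshold, and with flanks of 100 kb the lengths were 9.8 and 2.0 kb and the gene was called higher.

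Among the kinases, *JAK1* stood out. *JAK1* is the kinase that gp130 receptors depend on most. Its window held 2 H3K27ac peaks covering 2.0 kb in A2780, 1 peak of 0.8 kb with shMBD3.26 and none with shMBD3.232. In A2780cis it held 12 peaks covering 52.6 kb, in CAOV4 8 peaks covering 21.6 kb and in CAOV4cis 10 peaks covering 26.2 kb. H3K9ac covered 1.0 kb in A2780 and 34.2 kb in A2780cis. The A2780 lists were thus nearly empty with or without an shRNA, and the CAOV4 lines lay between A2780 and A2780cis. CAOV4 exceeded A2780 by 19.6 kb or 10.8-fold. Of all tiles, 7.61% rose by at least as many percentage points in CAOV4 against A2780 and 6.6% by at least as many kb.

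The A2780cis acetylation of *JAK1* lay mostly around the 5′ end. H3K27ac covered 33.6 kb of the gene window without flanks, 16.8 kb of the 5′ flank and 2.2 kb of the 3′ flank. A2780 had 0.0, 1.2 and 0.8 kb in the same places. In the gene window, the A2780cis peaks of 25.6, 3.4 and 5.0 kb ended within 33.0 kb of the 5′ edge. Peaks deeper in the gene measured 0.4 to 2.8 kb. The H3K9ac peaks of the gene window ended within 31.4 kb of the edge. Covered length was 26.3 times higher in A2780cis for H3K27ac, a difference of 50.6 kb, and 34.2 times higher for H3K9ac, a difference of 33.2 kb. Of all tiles, 1.34% rose by at least as many percentage points for H3K27ac and 1.52% for H3K9ac, and 1.09% and 1.27% rose by at least as many kb. The marks were mapped in separate libraries. Of the H3K9ac length in A2780cis, 90.1% lay under H3K27ac, close to the 87.1% over the whole lists. At *JAK1*, 10 of 12 merged H3K27ac regions had a peak in A2780cis only, beside 17.9% over the whole lists. For H3K9ac it was 9 of 10 regions, beside 21.7%. The region common to both lines and both marks lay in the 3′ flank, on the side of the neighboring gene *RAVER2*. It began 139.4 to 140.2 kb from the 5′ edge of the 130-kb gene window. With flanks of 100 kb the H3K27ac lengths were 62.2 kb in A2780cis and 5.4 kb in A2780, and the H3K9ac lengths were 49.2 and 1.0 kb. Most of the A2780cis length of either mark thus lay within the 50 kb flanks, but H3K9ac extended further beyond them than H3K27ac.

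**Figure D3:**
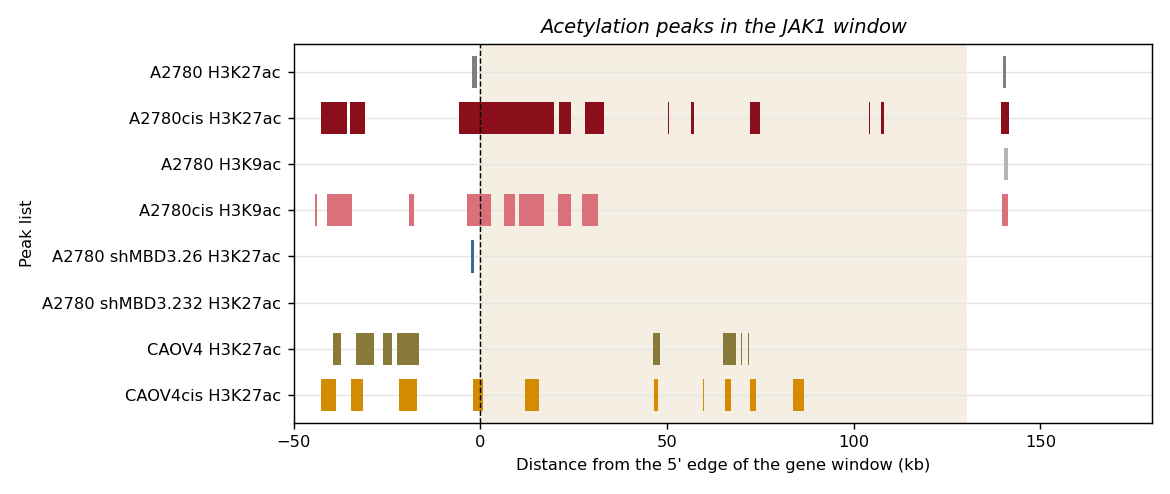
Peaks (bars) in the JAK1 window in 8 lists of 1 library each (vertical axis) against the distance from the 5′ edge of the gene window in kb (horizontal axis, positive into the gene, shaded). A2780cis has 12 H3K27ac and 10 H3K9ac peaks, spread from the 5′ flank into the gene, where A2780 and both shRNA lists have at most 2, and CAOV4 has none at the 5′ edge while CAOV4cis has a 2.8-kb peak there.

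In CAOV4 the *JAK1* window was already acetylated, and CAOV4cis exceeded it by 4.6 kb, while 19.5% of tiles rose by at least as many percentage points and 17.0% by at least as many kb. In this window with 50 kb flanks the covered lengths were similar and the positions of the peaks partly differed. Of 13 merged regions, 5 were common to CAOV4 and CAOV4cis, 5 were found in CAOV4cis only and 3 in CAOV4 only, beside 33.8% and 29.1% over the whole lists for the latter classes. In the gene window without flanks the lengths were 6.0 kb in CAOV4 and 12 kb in CAOV4cis, and *JAK1* was called higher there. The nearest CAOV4 peak lay 16.4 kb upstream of the 5′ edge. CAOV4cis had a 2.8-kb peak across the edge (chr1:65429201-65432000) and a 3.6-kb peak further inside (chr1:65414401-65418000), and both fell within the widest A2780cis peak. CAOV4cis shared 15.6 kb with A2780cis, or 59.5% of its own *JAK1* length and 29.7% of that of A2780cis, beside 39.8% and 35.1% over the whole lists. CAOV4 shared 4.6 kb with A2780cis, or 21.3% of its own *JAK1* length and 8.75% of that of A2780cis, beside 41.2% and 34.4% over the whole lists.

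*JAK2*, a kinase of gp130 and of many hormone and growth factor receptors, carried 1 peak near its 5′ end. The peak was 3.0 kb wide in A2780, 5.6 kb in A2780cis, 3.2 kb with shMBD3.26, 3.0 kb with shMBD3.232 and 3.0 kb in CAOV4cis, and CAOV4 had none. H3K9ac covered 2.6 kb in A2780 and 3.2 kb in A2780cis. The peak began 2.6 to 3.8 kb inside the 5′ edge in all 7 lists that had it, and no further peak lay within 100 kb of the gene window in any list. The difference between A2780cis and A2780 was 2.6 kb, and 25.3% of tiles rose by at least as many percentage points and 22.5% by at least as many kb.

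*TYK2*, the JAK kinase best known from interferon and interleukin-12 signaling, lay in a densely acetylated stretch of chromosome 19. H3K27ac covered 52.4 kb of its window in A2780, 45.2 kb in A2780cis, 31.0 kb with shMBD3.26 and 45.4 kb with shMBD3.232, but 9.0 kb in CAOV4 and 11.2 kb in CAOV4cis. H3K9ac covered 32.2 kb in A2780 and 27.4 kb in A2780cis. Hardly any of it lay in the gene window itself, where the 8 lists had 0.0 to 2.6 kb, and the rest lay in flanks that hold the neighbors *CDC37* and *PDE4A* on the 5′ side and *ZGLP1*, *FDX2*, *RAVER1* and *ICAM3* on the 3′ side. CAOV4 minus A2780 was -43.4 kb or 5.82-fold lower, and 8 of 13 merged regions were found in A2780 only, beside 44.3% over the whole lists. Of all tiles, 1.78% fell by at least as many percentage points and 3.96% by at least as many kb. Without flanks the *TYK2* difference was -2.6 kb and was not called. A peak lay within 0.6 kb of the 5′ edge in 7 of the 8 lists, and in CAOV4 the nearest lay 22.6 kb away.

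*STAT3*, the transcription factor activated through gp130, was acetylated in every list. H3K27ac covered 30.2 kb of its window in A2780, 47.2 kb in A2780cis, 22.8 kb with shMBD3.26, 28.2 kb with shMBD3.232, 32.4 kb in CAOV4 and 40.8 kb in CAOV4cis. H3K9ac covered 15.2 kb in A2780 and 18.8 kb in A2780cis. Each resistant line lay above its parental line and none of these differences reached 2-fold. Each shRNA list lay below A2780, but without flanks each lay above it by 1.2 kb, and shMBD3.232 lay above it by 2.2 kb when an equal number of the widest peaks was taken from each list. A peak lay across the 5′ edge or within 0.8 kb of it in all 8 lists. A2780cis exceeded A2780 by 17.0 kb or 1.56-fold, mostly in the 5′ flank, where A2780 had 13.4 kb and A2780cis had 30.0 kb, including a peak of 20.0 kb (chr17:40557601-40577600) on the side of *CAVIN1*, where A2780 had a peak of 7.0 kb. Inside the gene window the lengths were 8.2 and 12.2 kb. H3K9ac did not follow in that flank, with 7.0 kb in A2780 and 6.6 kb in A2780cis. For H3K27ac in A2780cis against A2780, 3.43% of tiles rose by at least as many percentage points as the *STAT3* window and 3.8% by at least as many kb. *STAT5A* and *STAT5B*, whose products belong to the same family, neighbor *STAT3* on the 3′ side.

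**Figure D4:**
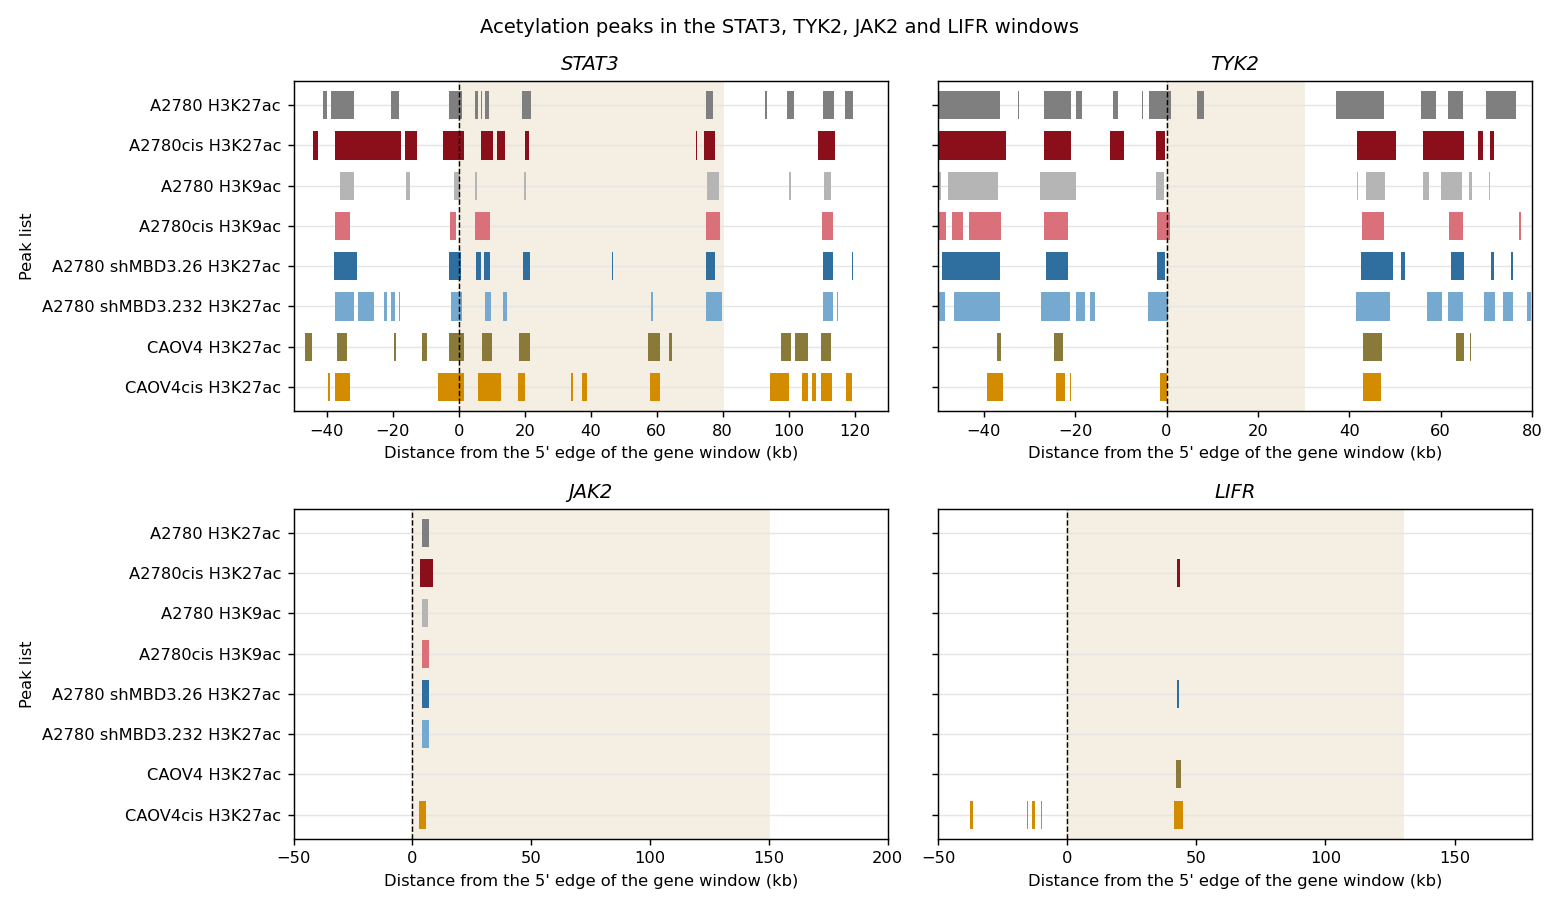
Peaks (bars) in the STAT3, TYK2, JAK2 and LIFR windows in 8 lists of 1 library each (vertical axis) against the distance from the 5′ edge of the gene window in kb (horizontal axis, positive into the gene, shaded). STAT3 has a peak at its 5′ edge in every list, TYK2 is bordered by peaks that thin out in the CAOV4 lines, JAK2 has 1 peak in 7 lists, and the LIFR peak about 42 kb inside the edge is present in 4 lists.

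*SOCS3*, the feedback inhibitor, moved opposite to *JAK1*. H3K27ac covered 63.8 kb of its window in A2780 with 14 peaks and 11.0 kb in A2780cis with 5 peaks. It covered 42.8 kb with shMBD3.26 and also 42.8 kb with shMBD3.232, 44.8 kb in CAOV4 and 25.6 kb in CAOV4cis. H3K9ac covered 47.2 kb in A2780 and 5.4 kb in A2780cis. A2780 was the highest and A2780cis the lowest of the lists for each mark.

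At *SOCS3*, A2780cis minus A2780 was -52.8 kb for H3K27ac, 5.8-fold lower, and -41.8 kb for H3K9ac, 8.74-fold lower. Of all tiles, 0.387% fell by at least as many percentage points for H3K27ac and 0.169% for H3K9ac. By at least as many kb, 1.39% and 0.793% fell. Of 14 merged H3K27ac regions, 11 were found in A2780 only and 3 were common, beside 38.1% found in A2780 only over the whole lists. For H3K9ac, 6 of 10 were found in A2780 only, beside 46.0%. All of the H3K27ac length left in A2780cis lay within peaks of A2780, so nothing was gained elsewhere in the window. The widest A2780 peak measured 23.6 kb (chr17:76334601-76358200), began 1.8 kb inside the 5′ edge and ran through the gene into the 3′ flank. The widest A2780cis peak measured 5.2 kb. Most of the difference lay in the 3′ flank, which went from 37.0 to 3.2 kb, and the 5′ flank on the side of *PGS1* went from 18.6 to 2.4 kb. In the 10 kb of the gene window without flanks, H3K27ac went only from 8.2 to 5.4 kb, and the gene was not called, while H3K9ac went from 8.0 to 0.0 kb and was called.

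CAOV4cis also had less H3K27ac at *SOCS3*, with a difference of -19.2 kb from CAOV4, 1.75-fold lower and below the 2-fold threshold, and 0.193% of tiles fell by at least as many percentage points and 1.08% by at least as many kb. With peaks over 2 kb only, the difference was -25.0 kb and the gene was called lower. Of 13 merged regions, 7 were common, 4 were found in CAOV4 only and 2 in CAOV4cis only, beside 29.1% and 33.8% over the whole lists. The 5′ flank went from 25.0 to 9.4 kb and the gene window from 8.2 to 5.4 kb, while the 3′ flank had 11.6 and 10.8 kb. The CAOV4 pair thus differed mainly in the 5′ flank and the A2780 pair mainly in the 3′ flank.

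**Figure D5:**
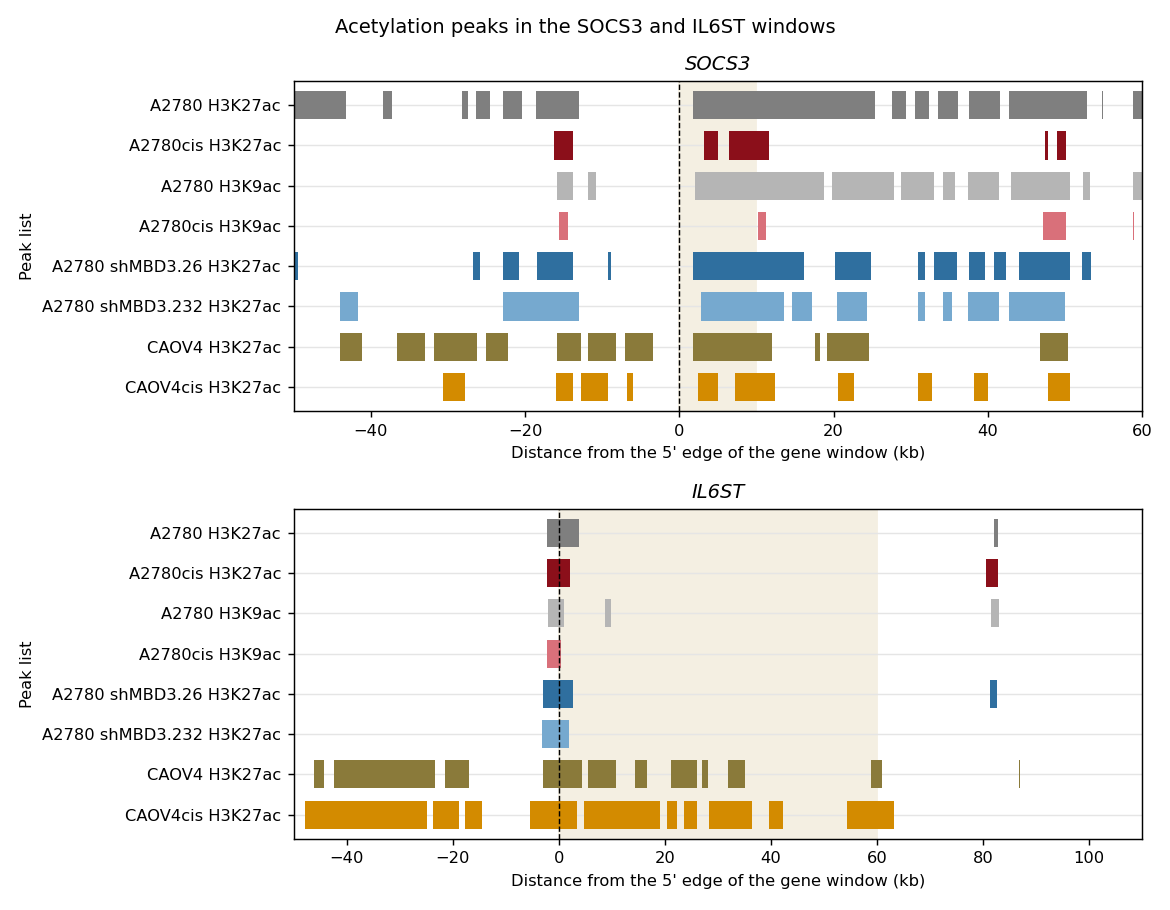
Peaks (bars) in the SOCS3 and IL6ST windows in 8 lists of 1 library each (vertical axis) against the distance from the 5′ edge of the gene window in kb (horizontal axis, positive into the gene, shaded). At SOCS3 A2780 has a 23.6-kb peak and A2780cis has peaks of at most 5.2 kb, and at IL6ST the 6 lists of the A2780 lineage have a peak at the 5′ edge and little else while both CAOV4 lines have peaks across the gene and upstream.

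The pairs of sensitive and resistant lines share no library, and their H3K27ac differences can be set side by side. *JAK1*, *JAK2*, *STAT3* and *LIFR* were higher and *SOCS3* lower in both resistant lines, so 5 of 7 genes had the same direction, beside 50.1% of the 5120 tiles that differed in both pairs. With only 7 genes, this count is not far from the share of tiles. The study picked *JAK1* partly from the A2780 pair, so its direction there is not independent. The directions of *LIFR* in the A2780 pair and *JAK2* in the CAOV4 pair rest on 1 peak each, of 1.0 and 3.0 kb. *TYK2* and *IL6ST* had opposite directions, which did not hold in every setting. With flanks of 100 kb, *TYK2* was higher by 5.4 kb in A2780cis and by 5.6 kb in CAOV4cis. With peaks over 2 kb, *IL6ST* was higher by 0.6 and 27.6 kb. In that setting the *LIFR* difference was 0 kb in the A2780 pair and 3.4 kb in the CAOV4 pair, so *LIFR* no longer had the same direction. The sizes differed widely, with *JAK1* at 50.6 and 4.6 kb, *SOCS3* at -52.8 and -19.2 kb and *STAT3* at 17.0 and 8.4 kb in the A2780 and CAOV4 pairs. The median difference of the genes was 0.43 percentage points in the A2780 pair and 2.0 in the CAOV4 pair, beside 0.1 and 0.2 over tiles. For H3K9ac in the A2780 pair it was 0.0, beside -0.1, and for CAOV4 against A2780 it was 0.87, beside -0.4.

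The shRNAs against MBD3 were compared with the same A2780 list that serves as reference for A2780cis, so these values are given side by side only. At *SOCS3* the difference from A2780 was -21 kb with either shRNA, and 0.405% of tiles with shMBD3.26 and 0.555% with shMBD3.232 fell by at least as many percentage points. By at least as many kb, 3.58% and 2.25% of tiles fell. At *TYK2* it was -21.4 kb with shMBD3.26 and -7.0 kb with shMBD3.232. At least as many percentage points were lost by 0.825% and 9.06% of tiles, and at least as many kb by 3.36% and 16.2%. At *JAK1* the difference from A2780 was -1.2 and -2.0 kb, and the A2780 peak 1.0 kb upstream of the 5′ edge was kept in part with shMBD3.26 and absent with shMBD3.232. Among the remaining genes the largest difference was -7.4 kb, at *STAT3* with shMBD3.26. At *SOCS3*, the difference with shMBD3.232 was -53.8 kb with flanks of 100 kb, where the gene was called lower. The median difference of the genes was -0.52 percentage points with shMBD3.26 and -1.0 with shMBD3.232, beside -0.5 and -0.7 over tiles. Both shRNA lists covered less than A2780 over the whole genome too, with 78.6 and 80.8 Mb against 98.9 Mb, and the part of this in the gene differences was not tested. With shMBD3.26, 5 of 49 merged regions in the windows were found with the shRNA only and 17 in A2780 only, beside 18.0% and 34.0% over the whole lists. With shMBD3.232 these were 7 and 20 of 50 regions, beside 10.9% and 40.1%. The shRNA lists shared 85.4 kb in the windows, or 78.9% of the shMBD3.26 length and 68.5% of the shMBD3.232 length, beside 76.5% and 74.4% over the whole lists. At *SOCS3* they shared 33.6 kb of 42.8 kb.

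H3K9ac followed H3K27ac in the windows to a varying degree. In A2780, 56.0% of the H3K27ac length in the windows also lay under H3K9ac, beside 44.0% over the whole lists, and in A2780cis the shares were 48.2% and 50.6%. The share at *JAK1* in A2780cis was 58.6%. At *SOCS3* it was 65.2% in A2780 and 34.5% in A2780cis, and at *STAT3* it was 39.7% and 32.6%. *SOCS3* thus had less H3K27ac in A2780cis, and a smaller share of what was left carried H3K9ac, 3.8 of 11.0 kb. A lower share in A2780cis was not particular to *SOCS3*. It also went from 86.7% to 57.1% at *JAK2* and from 55.9% to 39.4% at *IL6ST*. The share went up from 30.0% at *JAK1*, and from 53.4% to 57.1% at *TYK2*.

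Over the 7 windows together, the A2780cis and A2780 H3K27ac peaks formed 58 merged regions. Of these 21 were common, or 36.2% with a 95% Wilson interval of 25.1 to 49.1%, 17 were found in A2780cis only (29.3%, 19.2 to 42.0%) and 20 in A2780 only (34.5%, 23.6 to 47.3%). *JAK1* held 10 of the regions found in A2780cis only and *SOCS3* held 11 of those found in A2780 only. Over the whole lists 44.0% of regions were common, 17.9% were found in A2780cis only and 38.1% in A2780 only. The intervals cover counting error only, and regions that lie side by side in a window are not independent of each other.

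The share of the *JAK1* window covered in the 8 lists was compared with that of 8405 tiles holding a peak in at least 1 list. The nearest by Euclidean distance in percentage points were chr11:84200001-84400000 at 5.32, chr14:68200001-68400000 at 9.17 and chr11:58800001-59000000 at 9.45. H3K27ac covered 21.9% of the closest tile in A2780cis and 0.0% in A2780, beside 22.9% and 0.870% at *JAK1*. The genes in these tiles were not analysed here, because no annotation of hg19 was used.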

How the data were processed

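H3K27ac and H3K9ac were mapped by ChIP-seq of mononucleosomes with a Drosophila melanogaster spike-in of 5%, with 1 library per condition. Reads were aligned by the authors with Bowtie2, the profiles were quantile normalized with an R script of their group, and the paper names MACS2 for peak calling. The submitters' processing notes name GRCh37 and hg19. The deposited lists give the start and end of each peak, and their score column, as the authors deposited it, holds 0 throughout and could not be used. Positions and widths are therefore known, strength is not, and no read depth is given.

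Peaks on the standard chromosomes were clipped to the windows and the covered length was summed. Boundaries on these chromosomes lie on a grid of 200 bp, and 6 peaks elsewhere were left out. Neighboring peaks of a list lie at least 1000 bp apart, which bears on peak numbers and widths. The sources do not state which step gave this layout. Differences were called at 5 kb and 2-fold, and merged regions need an overlap of 1 bp. The calling was checked on a copy of the A2780 H3K27ac list with chosen tiles emptied, and the coverage on simulated peaks. These checks cannot show how the calls behave under noise or differing depth. Python 3.11.15, numpy 2.4.6, pandas 2.3.3, SciPy 1.17.1 and matplotlib 3.10.9 were used. All 7 genes are named, with their widest peaks and those nearest to the 5′ edge, which is the edge of the given window and not an annotated start. The genes, the windows and the tests were chosen with earlier results of these data known. Alternatives were no flank, flanks of 100 kb, peaks over 2 kb, the same number of widest peaks, 1.5-fold, other overlaps and tiles of 100 kb. Input libraries, control shRNA cells, cell type markers and other genes of the pathway were not analysed here. RefSeq gave the promoter sequences and, by name only, the neighboring genes.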

Additional observations from a re-analysis of the deposited data

Results flagged for a closer look

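TYK2 and IL6ST differed in opposite directions in the A2780 and CAOV4 pairs. For TYK2, the H3K27ac length in A2780cis minus A2780 was -7.2 kb and in CAOV4cis minus CAOV4 it was 2.2 kb. For IL6ST the differences were -0.2 and 26 kb. The opposite directions were lost with flanks of 100 kb for TYK2 (5.4 and 5.6 kb) and for IL6ST with peaks over 2 kb (0.6 and 27.6 kb) and with an equal number of widest peaks (0.6 and 26 kb). With 1 library per condition, the difference between the pairs was not tested.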

How the results depend on the processing

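Each of the 42 calls (7 genes in 6 comparisons) was repeated under 5 settings. When both lists were reduced to an equal number of their widest peaks, 42 of 42 calls stayed, with peaks over 2 kb 41, with flanks of 100 kb 40, with no flank 39 and with a 1.5-fold threshold 38, and no called difference changed direction. Among those not called, A2780cis minus A2780 turned from -7.2 to 5.4 kb for TYK2 H3K27ac with flanks of 100 kb, from -4.8 to 0.8 kb for TYK2 H3K9ac with no flank, and from -0.2 to 0.6 kb for IL6ST H3K27ac with peaks over 2 kb and with equal numbers of peaks. STAT3 turned from -7.4 kb with shMBD3.26 and -2.0 kb with shMBD3.232 to 1.2 kb with no flank, and with shMBD3.232 to 2.2 kb with equal numbers of peaks. In A2780cis against A2780 for H3K27ac, 2 genes instead of 1 were higher at 1.5-fold, since STAT3 joined, and 0 instead of 1 were lower with no flank, since SOCS3 dropped out. In CAOV4cis against CAOV4, 1 gene instead of 0 was higher with no flank (JAK1), with flanks of 100 kb (LIFR) and at 1.5-fold (IL6ST), and 1 instead of 0 was lower with peaks over 2 kb and at 1.5-fold (SOCS3 in both). With shMBD3.26, 1 gene instead of 0 was lower at 1.5-fold (TYK2), and with shMBD3.232, 1 instead of 0 was lower with flanks of 100 kb (SOCS3). In CAOV4 against A2780, 0 instead of 1 was lower with no flank (TYK2). Of the merged regions in the windows of A2780cis and A2780, the common ones went from 21 to 11 with peaks over 2 kb and 9 with no flank. Those in A2780cis only went from 17 to 11 with no flank. Those in A2780 only went from 20 to 12 when peaks within 5 kb counted as shared, 11 with peaks over 2 kb, 2 with no flank and 35 with flanks of 100 kb. Over all 8 lists the windows were covered to 10.7%, and to 6.62% with no flank, 9.68% with flanks of 100 kb and 9.37% with peaks over 2 kb. The share of A2780 H3K27ac under H3K9ac went from 56.0% to 50.5% with flanks of 100 kb and to 51.0% with peaks over 2 kb. With no flank and with wider flanks the changes follow from counting less or more of the neighborhood, and the cause of the others was not tested. No paired analysis was possible because each condition has 1 library. Depth is unknown, so a window without a listed peak may still carry signal under the threshold of the peak caller.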
